A study of Mus musculus with 2 samples.

Results

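The genes described here set the activity of Ras: 7 guanine nucleotide exchange factors, which load Ras with GTP (Rasgrp1, Rasgrp2, Rasgrp3, Rasgrf1, Rasgrf2, Sos1 and Sos2), and 2 GTPase-activating proteins, which drive it back to the GDP form (Nf1 and Rasal2). They were taken by symbol, and all 9 were found among the 33696 genes of the files. The data are single-nucleus RNA counts from the mouse hippocampus at postnatal day 19. The control library came from Cicflox/flox mice, in which both copies of Cic carry loxP sites. The other library came from Emx1-Cre; Cicflox/flox mice, in which Cre is driven by Emx1, a gene of the dorsal telencephalic lineage, and the labels call it knockout. Each library pooled 3 mice, 2 males and 1 female, so each group is 1 library, no difference could be tested, and every interval below is a 95% interval for counting error alone.

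Ras is a membrane switch that passes signals from receptors to the MAP kinase cascade. Exchange factors differ in what turns them on: diacylglycerol and calcium for the Rasgrp family, calcium with calmodulin for the Rasgrf family, and activated receptor tyrosine kinases, through the adaptor Grb2, for Sos1 and Sos2. Capicua, the product of Cic, is a transcriptional repressor at the far end of this cascade, where phosphorylation after ERK activation relieves its repression.

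The comparison used 21783 control nuclei (median 9786 UMIs, the distinct RNA molecules counted) and 20569 nuclei of the library labelled knockout (median 8765 UMIs). Before doublets were left out, 25060 and 23043 nuclei had passed the filters, and these shared 166 barcode sequences. Nuclei were grouped into classes by marker genes, and each class is called by its markers with the ending -like. There were 15 classes with at least 100 nuclei in each library, which held 92.8% of control nuclei and 92.1% of the others. Levels are given as CPM, the UMIs of the gene per 1000000 UMIs of the class in that library. Ratios are log2 of the labelled knockout over the control. A gene was called higher or lower where the higher library had at least 50 UMIs and 10 CPM and the libraries differed by at least 2-fold, which is a rule of size. Cic itself showed no lower level under the knockout label: dentate granule-like nuclei held 9.05 CPM in the control and 12.4 in the other library, a log2 ratio of 0.45 (0.27 to 0.64). These are 3′ tags, the deleted part of the gene is not given in the sources used here, and the count therefore does not check the label. Etv4, a known target of Capicua repression, stood at 57 and 4280 UMIs in the same nuclei, a log2 ratio of 6.72. All directions below are those of the library labelled knockout.

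Of 135 pairs of member and class, 94 reached the minimum counts and 4 were called. Rasgrp1 fell in dentate granule-like nuclei. Rasgrf2 rose in CA1-like and in subicular or cortical excitatory-like nuclei. Rasal2 rose in oligodendrocyte-like nuclei. In these 4 classes 3.33%, 3.17%, 1.09% and 2.95% of all tested genes were called in either direction (dentate granule-like, CA1-like, subicular or cortical excitatory-like and oligodendrocyte-like, in that order). No member was called in the other 11 classes. Of all genes tested there, the share called was 0.114% in inhibitory-like, 0.212% in oligodendrocyte precursor-like, 0.233% in astrocyte-like, 0.283% in microglia-like and 0.394% in immature dentate granule-like nuclei. It was 0.722% in cycling progenitor-like, 0.925% in radial glia-like, 1.58% in committed oligodendrocyte precursor-like, 1.62% in CA3-like, 2.59% in Cajal-Retzius-like and 3.38% in CA2-like nuclei.

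**Figure D1:**
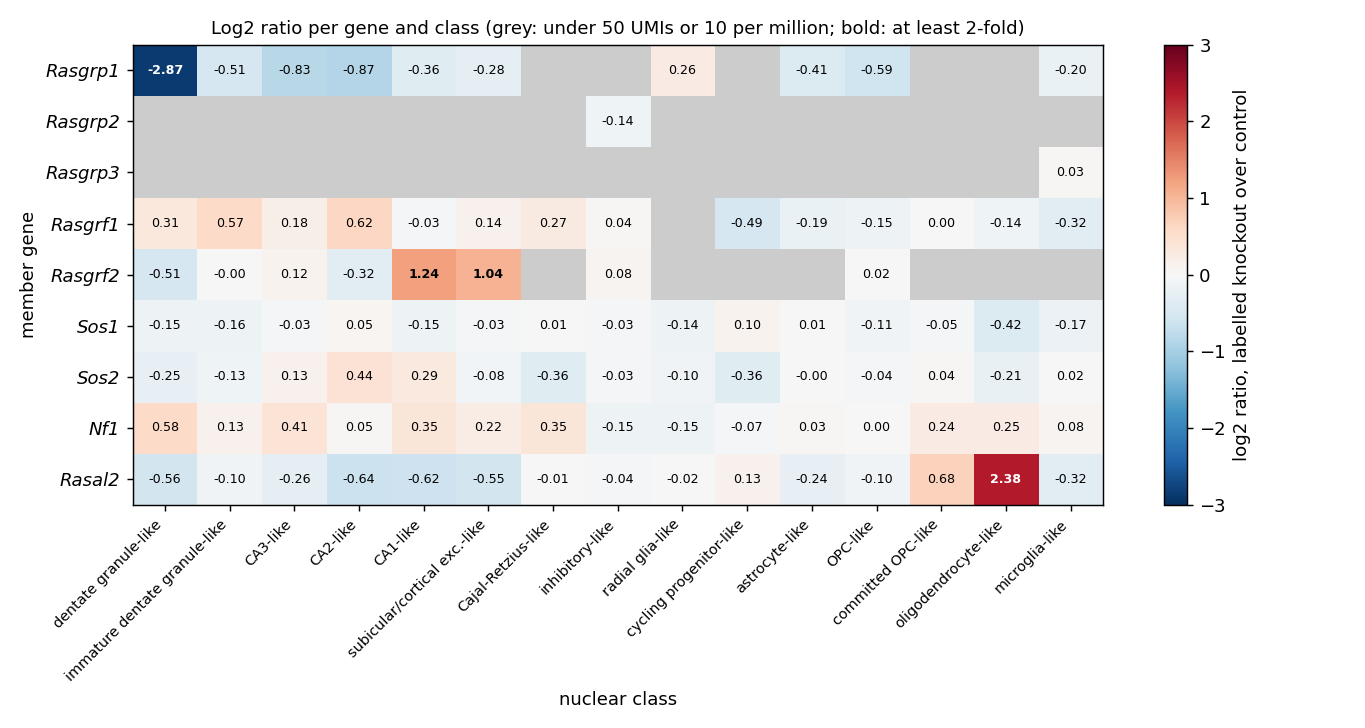
Log2 ratio of each member (rows) in each class (columns), library labelled knockout over control, 1 library per group. Red is higher, blue is lower, bold values are at least 2-fold and grey squares were below 50 UMIs or 10 CPM in the higher library. The outlying squares are Rasgrp1 in dentate granule-like nuclei at -2.87 and Rasal2 in oligodendrocyte-like nuclei at 2.38.

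The sequences just upstream of the called genes are shown because Capicua binds DNA through a known octamer. RefSeq promoter windows (build GRCm38.p6, 250 bases before to 50 after a gene's start) were available for all 9 members, in 11 windows. Each was searched on both strands for TGAATGAA, TGAATGGA, TCAATGAA and TCAATGGA. At least one of these octamers occurred in 3.84% of 32851 windows of all genes. Among the members, 1 of the 2 windows of Rasgrp3 held one, and the windows of Rasgrp1, Rasgrf2, Rasal2 and the other 5 genes held none of these letters. The 250 bases before the start are printed 5′ to 3′ on the strand of the gene, with the match in capitals; in Rasgrp3 it lies on the opposite strand and begins 12 bases before the start.
Rasgrp1 (chr2:117342878-117343127, minus strand): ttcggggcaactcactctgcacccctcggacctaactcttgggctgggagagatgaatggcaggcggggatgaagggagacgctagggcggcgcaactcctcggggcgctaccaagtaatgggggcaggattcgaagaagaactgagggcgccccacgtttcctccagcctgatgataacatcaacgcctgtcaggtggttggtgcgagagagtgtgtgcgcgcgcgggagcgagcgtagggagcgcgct
Rasgrf2 (chr13:92131829-92132078, minus strand): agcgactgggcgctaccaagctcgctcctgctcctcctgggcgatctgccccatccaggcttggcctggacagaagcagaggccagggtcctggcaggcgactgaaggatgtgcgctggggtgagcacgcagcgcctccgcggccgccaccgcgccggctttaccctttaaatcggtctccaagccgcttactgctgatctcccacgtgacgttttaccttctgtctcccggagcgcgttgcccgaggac
Rasal2 (chr1:157412596-157412845, minus strand): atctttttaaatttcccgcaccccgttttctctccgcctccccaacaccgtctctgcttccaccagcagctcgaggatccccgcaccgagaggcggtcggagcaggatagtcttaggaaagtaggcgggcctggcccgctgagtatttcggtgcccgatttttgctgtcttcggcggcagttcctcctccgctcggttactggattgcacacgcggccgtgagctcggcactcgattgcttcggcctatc
Rasgrp3 (chr17:75435655-75435904, plus strand): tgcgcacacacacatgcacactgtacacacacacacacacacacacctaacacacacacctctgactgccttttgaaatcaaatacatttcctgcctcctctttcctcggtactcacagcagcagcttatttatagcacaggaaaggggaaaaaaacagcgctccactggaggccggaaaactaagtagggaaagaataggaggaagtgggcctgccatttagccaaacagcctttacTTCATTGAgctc

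Rasgrp1, the exchange factor that answers to diacylglycerol and calcium, had 1396 UMIs in 4402 control nuclei of the dentate granule-like class and 134 UMIs in 3377 nuclei of the other library. These sums are 25.8 (24.4 to 27.2) and 3.51 (2.94 to 4.16) CPM, a fall of 7.31-fold (log2 ratio -2.87, -3.14 to -2.62). It was the only member called in this class, 1 of the 7 that reached the minimum counts, where 1.06% of all 8415 tested genes were called lower. The median log2 ratio of all 9 members was -0.25 here, and that of all tested genes was 0.01. The ratio was -2.95 in female and -2.81 in male nuclei, which come from different mice of each pool. At 3.51 CPM, the granule-like nuclei of the library labelled knockout had the lowest Rasgrp1 level of any class in either library. Oligodendrocyte-like nuclei of the same library were next at 4.86 (3.51 to 6.54), and as these intervals overlap the order is not resolved. In the control the granule-like level stood above those of inhibitory-like (9.95), immature dentate granule-like (11.2) and the 3 oligodendrocyte lineage classes (6.80 to 12.6).

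The dentate granule-like class consists of 2 clusters that hold the libraries unequally. Cluster 1, led by Bmp6 and Gm42864, had 972 control nuclei and 3254 of the library labelled knockout, and cluster 3, led by Glis3, Dsp and Trpc6, had 3430 and 123. Rasgrp1 was lower within both: 11.7 against 3.38 CPM in cluster 1 (log2 ratio -1.79, -2.15 to -1.42) and 29.3 against 6.86 in cluster 3 (-2.03, -3.16 to -1.21), the last from 10 UMIs. When the nuclei were clustered without the 1110 genes past the size rule in any class, 2 clusters were again dentate granule-like. The libraries were less unequal in each. Together these clusters held more nuclei of each library than the class above (4402 and 3377), so the set of nuclei was not the same. In these 2 clusters the Rasgrp1 ratios were -3.16 (3190 and 2301 nuclei) and -1.91 (1755 and 1617 nuclei).

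Marker sums also differed between the libraries in dentate granule-like nuclei. The class's own 6 markers summed to 4247 CPM (control) and 3318 CPM, and among them Trpc6 stood at 373.5 and 117.4. The 6 immature granule markers summed to 85.6 and 142.3, the 5 Cajal-Retzius markers to 4.45 and 43.9 and the 6 CA3 markers to 529.8 and 377.2, with none at 0. Their part in the Rasgrp1 result was not tested.

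Counted per nucleus, Rasgrp1 was found in 19.6% (18.4% to 20.8%) of control dentate granule-like nuclei and 3.49% (2.90% to 4.17%) of the others, at median depths of 11775.5 and 10850 UMIs. After thinning every nucleus to 2000 UMIs the shares were 4.89% and 0.74%. Oligodendrocyte-like nuclei, at 4.86 to 8.87 CPM, had shares of 6.75% (control) and 4.20% (library labelled knockout), at median depths of 8203 and 8515.5. The 3.49% of granule-like nuclei was thus near the 4.20% of a class with few Rasgrp1 UMIs in the same library. In that library 96.5% of granule-like nuclei and 96.6% of the shallower immature dentate granule-like nuclei (median 3787 UMIs) had no Rasgrp1 UMI. Whether these UMIs came from the nuclei themselves was not tested.

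Rasgrp1 had its 4 highest control levels in the pyramidal and the subicular or cortical excitatory classes, and there the differences were under 2-fold. In CA3-like nuclei, the targets of the mossy fibers, control nuclei held 155.5 CPM and those of the other library 87.2 (log2 ratio -0.83, -0.91 to -0.76). The CA3-like ratio was -0.83 and -0.72 in its 2 clusters, and -0.84 in female and -0.79 in male nuclei. The share of CA3-like nuclei with a Rasgrp1 UMI was 80.7% in the control and 63.2% in the other library, and nuclei with 10 or more UMIs were 7.77% and 0.94%. CA2-like nuclei held 101.3 and 55.3 CPM (-0.87), from 357 and 135 UMIs. Subicular or cortical excitatory-like nuclei held 124.7 and 102.5 CPM (-0.28, -0.39 to -0.17). In CA1-like nuclei, 166.8 and 130.2 CPM gave -0.36 (-0.40 to -0.31), and the 3 clusters were unequal: -0.05 in cluster 4, -0.49 in cluster 6 and -1.72 (-2.10 to -1.36) in the small cluster 22, led by C1qtnf7, Cpa6 and Unc13c.

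**Figure D2:**
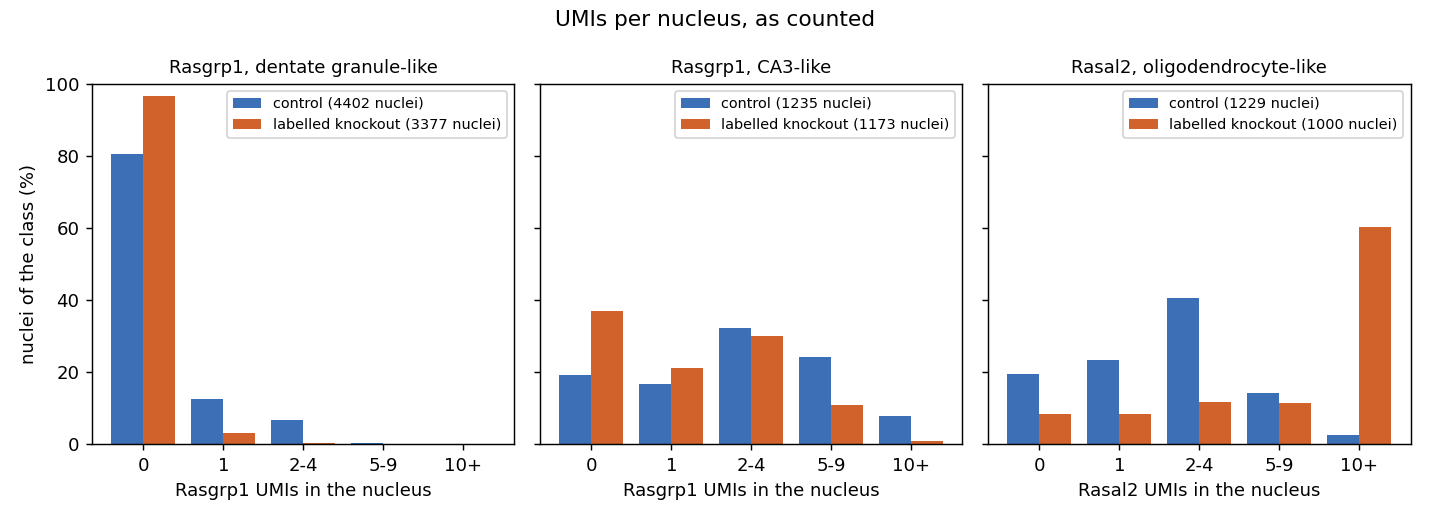
Share of nuclei (vertical axis, percent) by the number of UMIs of the gene in the nucleus (horizontal axis), as counted, in the control (blue) and the library labelled knockout (orange). Rasgrp1 moved to the left in dentate granule-like and CA3-like nuclei, and 60.2% of oligodendrocyte-like nuclei of the library labelled knockout had 10 or more Rasal2 UMIs, against 2.52% in the control.

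Of the classes that are not excitatory neurons, radial glia-like nuclei had the highest Rasgrp1 level, at 48.6 and 57.9 CPM. The astrocyte-like level was 35.0 and 26.3 CPM (-0.41, -0.67 to -0.15), and the inhibitory-like level was 9.95 and 7.87 (-0.34, -0.65 to -0.03). The interval included 0 in microglia-like (-0.20, -0.66 to 0.26) and radial glia-like nuclei (0.26, -0.29 to 0.79). The microglia-like ratio varied, at -2.19 in male nuclei (36 and 5 UMIs), -0.31 in female nuclei, -0.58 in cluster 9 and 0.29 in cluster 11. Of 1487 control and 1474 other microglia-like nuclei, 469 and 401 were called male and 333 and 369 female. The rest had no sex call. The ratio was below 0 in 14 of 15 classes, with an interval apart from 0 in 11. Such intervals hold counting error alone, and the share of all genes with an interval apart from 0 is not given here. Counted the same way, Rasal2 lay below 0 in 8 classes and above in 2, and Nf1 above in 8 and below in 1. Inhibitory-like and microglia-like nuclei lie outside the lineage in which Emx1-Cre is known to act, and Etv4 was also higher there, at 2.22 and 9.40 CPM in inhibitory-like and 4.28 and 31.3 in microglia-like nuclei. The part of RNA from other nuclei in these values was not tested.

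Rasgrp2, known as CalDAG-GEFI and an exchange factor mainly for the Ras relative Rap, was close to the limit of detection. Its highest level was in inhibitory-like nuclei, from 220 control UMIs and 176 of the other library, or 10.2 and 9.24 CPM (-0.14, -0.43 to 0.15). No other class reached the minimum counts for Rasgrp2, and CA2-like nuclei held 0 UMIs in both libraries, out of 3523443 and 2439601 UMIs of all genes, which by the exact interval allows up to 1.05 and 1.51 CPM of Rasgrp2. Rasgrp2 overlaps Gm14965 on the opposite strand.

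Rasgrp3, which acts on Ras and Rap and is known from lymphoid and myeloid cells, was highest in microglia-like nuclei among the 15 classes. All used nuclei held 2248 (control) and 1905 Rasgrp3 UMIs. Nuclei outside the 15 classes were not compared, and no endothelial class is among the 15. The 2 libraries had 1898 (control) and 1576 Rasgrp3 UMIs in microglia-like nuclei, or 579.9 and 593.5 CPM, and the log2 ratio was 0.03 (-0.06 to 0.13). A Rasgrp3 UMI was seen in 61.5% and 58.1% of these nuclei at median depths of 2130 and 1718.5, and in 0.36% and 0.30% of the far deeper dentate granule-like nuclei. No other of the 15 classes exceeded 8.81 CPM, the oligodendrocyte-like level in the library labelled knockout. Rasgrp3, the member with the octamer in a window, was not called in its main class. Microglia-like nuclei lie outside the lineage in which Emx1-Cre is known to act. No other class reached the minimum counts for Rasgrp3, and any part of the octamer was not tested.

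Rasgrf1, activated by calcium and calmodulin and known for its part in hippocampal plasticity, had its 5 highest control levels in excitatory classes, followed by inhibitory-like (198.3 CPM) and oligodendrocyte precursor-like nuclei (164.1 CPM). In dentate granule-like nuclei, its highest class, levels were 582.6 CPM (control) and 722.3 CPM (0.31, 0.29 to 0.33). The difference was larger in female nuclei (516.9 and 771.0, log2 ratio 0.58) than in male nuclei (624.2 and 690.4, log2 ratio 0.15), and this difference between the sexes was not tested. Immature dentate granule-like nuclei had 89.9 and 133.6 CPM (0.57), with opposite directions in their 2 clusters: -0.41 (-0.64 to -0.18) in cluster 0 and 0.93 (0.81 to 1.05) in cluster 12. The dentate granule-like ratio was 0.74 in cluster 1 and 0.28 in cluster 3. CA2-like nuclei had 219.1 and 337.8 CPM (0.62), below 2-fold. CA1-like nuclei had 512.5 and 503.0 CPM, and the female ratio was 0.16 and the male ratio -0.12. It was -0.27 (-0.30 to -0.23) in CA1-like cluster 4, 0.23 in cluster 6 and 0.32 in cluster 22. Of 81 pairs of member and class with enough counts in both sexes, Rasgrf1 in CA1-like nuclei was the only one whose female and male intervals lay on opposite sides of 0. Rasgrf1 in inhibitory-like nuclei was 198.3 and 204.6 CPM, where median-of-ratios scaling (-0.01) and TMM turn the direction.

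Rasgrf2, the close relative of Rasgrf1, was highest in inhibitory-like nuclei, at 324.8 CPM (control) and 343.9 CPM (0.08, 0.03 to 0.13). In CA1-like nuclei it had 695 and 1378 UMIs, or 12 (11.1 to 12.9) and 28.4 (26.9 to 29.9) CPM, a rise of 2.36-fold (1.24, 1.11 to 1.37). It was the only member called among 7 tested in CA1-like nuclei, where 2.64% of 8370 genes were called higher. All 3 CA1-like clusters had it higher, with log2 ratios of 1.56 in cluster 4, 0.91 in cluster 6 and 0.89 in cluster 22. The ratio was 1.71 in female nuclei, just short of 2-fold in male nuclei (12.8 and 25.5 CPM), and 0.90 with doublets kept. A Rasgrf2 UMI was found in 14.7% and 27.9% of CA1-like nuclei, and in 1.81% and 4.87% after thinning to 2000 UMIs, against 1.07% and 0.91% of thinned oligodendrocyte-like nuclei.

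Subicular or cortical excitatory-like nuclei had 868 and 1726 Rasgrf2 UMIs, or 71.7 and 147.3 CPM, a rise of 2.05-fold (1.04, 0.92 to 1.16). No other member was called among the 7 tested in this class, where 0.915% of 8526 genes were called higher. The rise lay mostly in cluster 18, led by ENSMUSG00000120124, Col8a1 and Dpp10, at 76.1 and 210.4 CPM (1.47, 1.31 to 1.63). Cluster 21 had 69.0 and 87.3 (0.34), and the remaining cluster, 37, held only 17 and 47 nuclei. The call was lost with median-of-ratios scaling (0.99), TMM scaling (0.97), in male nuclei (0.86) and with doublets kept (0.88). The 6 markers of inhibitory neurons, where Rasgrf2 is highest, summed here to 111.4 CPM (control) and 72.3 CPM, with 1 marker at 0 in the control. In the same class the 5 radial glia markers summed to 3.80 and 10.3 CPM and the 6 hilar mossy markers to 10.8 and 20.8, each with 1 marker at 0 in the control and the latter with 1 at 0 in the other library too, the 6 immature granule markers to 171.9 and 213.3 and the 5 astrocyte markers to 704.0 and 556.0. In CA1-like nuclei the 6 inhibitory markers summed to 7.96 and 8.74, with none at 0. Other marker sums in CA1-like nuclei were as follows: the 6 immature granule markers summed to 58.7 and 115.6 CPM, the 5 Cajal-Retzius markers to 9.05 and 40.9, the 6 CA3 markers to 279.7 and 387.9 and the class's own 6 markers to 879.7 and 705.4, with none at 0. The part of these markers in either result was not tested.

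In dentate granule-like nuclei Rasgrf2 stood at 250.8 and 176.5 CPM (-0.51, -0.55 to -0.46), below the size of a call. Within the clusters the ratio was 0.16 in cluster 1 and -0.03 in cluster 3, whereas the 2 clusters built without the changed genes gave -0.56 and -0.13. The difference of the whole class was thus not seen within clusters 1 and 3. In CA3-like nuclei Rasgrf2 was 38.2 and 41.4 CPM (0.12, -0.01 to 0.24).

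**Figure D3:**
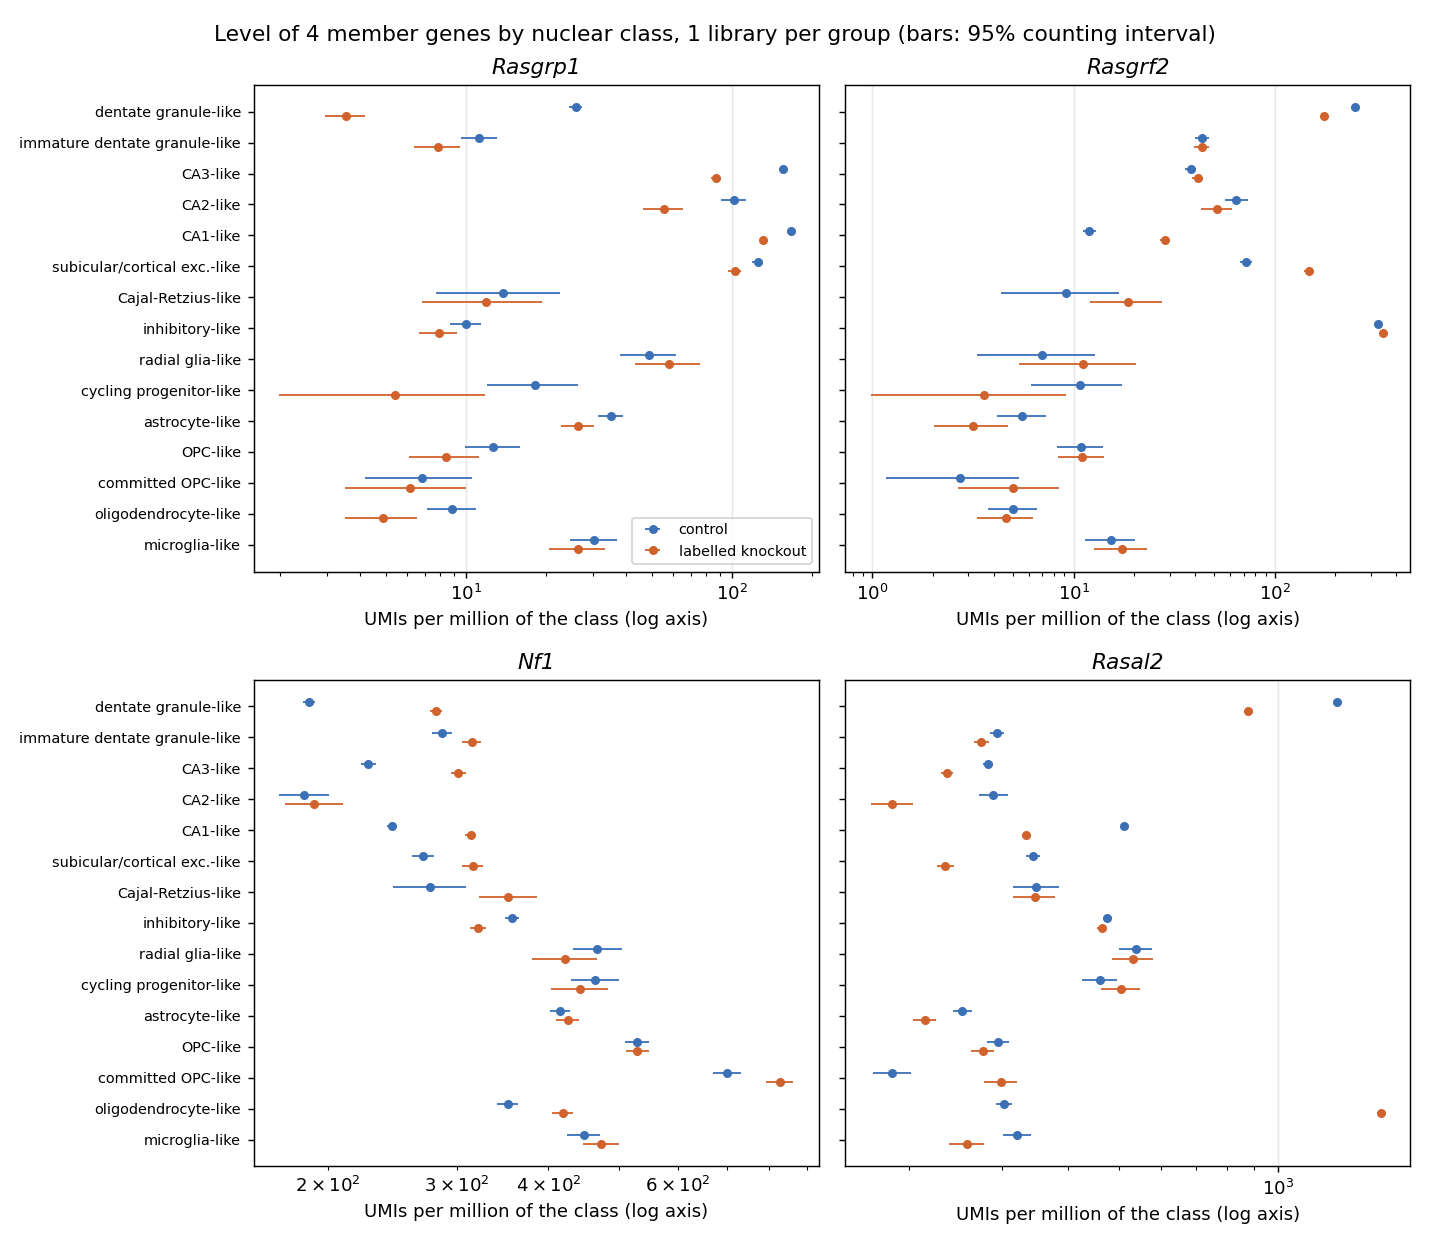
Level of Rasgrp1, Rasgrf2, Nf1 and Rasal2 (CPM, log axis) in each of 15 classes in the control (blue) and the library labelled knockout (orange), with 95% counting intervals. Rasgrp1 stands apart between the libraries in dentate granule-like nuclei (25.8 and 3.51), Rasgrf2 in CA1-like nuclei (12 and 28.4) and Rasal2 in oligodendrocyte-like nuclei (302.0 and 1570.5).

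Sos1 and Sos2, the exchange factors that couple receptor tyrosine kinases to Ras, were found in every class. Sos1 ran from 63.0 CPM in CA2-like to 154.2 in radial glia-like nuclei of the control, and its 15 ratios from -0.42 to 0.10. The lowest was in oligodendrocyte-like nuclei, at 105.6 and 78.8 CPM (-0.42, -0.56 to -0.28). Sos2 ran from 36.6 in CA2-like to 140.7 in Cajal-Retzius-like nuclei of the control, and its ratios from -0.36 to 0.44. In dentate granule-like nuclei Sos2 was 67.3 and 56.6 CPM (-0.25), and in CA1-like nuclei 51.9 and 63.6 (0.29, 0.22 to 0.37). Neither gene was called in any class. Sos1 overlaps Arhgef33 on the opposite strand.

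Nf1 encodes neurofibromin, the Ras GTPase-activating protein lost in neurofibromatosis. It was highest in the committed oligodendrocyte precursor-like class, at 700.7 CPM (control) and 827.5 CPM (0.24, 0.15 to 0.33). In dentate granule-like nuclei Nf1 stood at 188.8 and 281.2 CPM, a log2 ratio of 0.58 (0.54 to 0.61), and it was above 0 within cluster 1 (0.41) and cluster 3 (0.45). The CA3-like ratio was 0.41, at 227.3 and 301.5 CPM, and the CA1-like ratio was 0.35, at 245.0 and 313.3. The female and male ratios were 0.52 and 0.63 in dentate granule-like, 0.37 and 0.40 in CA3-like and 0.36 and 0.33 in CA1-like nuclei. None of these Nf1 differences reached 2-fold. In inhibitory-like nuclei Nf1 was 356.6 and 321.2 CPM (-0.15, -0.20 to -0.10). Nf1 contains Omg, Evi2a, Evi2b and AU040972 on the opposite strand, so reads of these genes and of Nf1 cannot be told apart where counting ignores the strand, and how strand was treated is not given in the sources used here. Omg, the most counted of them in dentate granule-like nuclei, had 1043 and 666 UMIs there.

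Rasal2, a GTPase-activating protein that lowers Ras activity, had 3133 UMIs in the 1229 control nuclei of the oligodendrocyte-like class and 13908 UMIs in the 1000 nuclei of the library labelled knockout. The levels were 302.0 and 1570.5 CPM, a rise of 5.20-fold (log2 ratio 2.38, 2.32 to 2.43). It was the only member called among 5 tested in this class, where 2.09% of 8125 genes were called higher. The median oligodendrocyte-like nucleus held 2 Rasal2 UMIs in the control and 13 in the other library. Nuclei of the library labelled knockout were unequal: 60.2% had 10 or more UMIs, and 8.30% had none. The median log2 ratio of all 9 members was -0.11 in this class, and that of all tested genes was -0.09.

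The Rasal2 rise was present in both oligodendrocyte-like clusters, at 2.47 in cluster 7, led by Prr5l, Aspa and 4930420G21Rik, and 2.05 in cluster 25, led by 9630013A20Rik, Cnksr3 and Casr. Female nuclei gave 2.44 and male nuclei 2.38, and the ratio was 1.72 with doublets kept. Along the oligodendrocyte lineage the ratio was -0.10 (295.0 and 275.6 CPM) in oligodendrocyte precursor-like nuclei, 0.68 (185.6 and 298.3) in committed precursor-like nuclei and 2.38 in oligodendrocyte-like nuclei. The 1570.5 CPM of oligodendrocyte-like nuclei was the highest Rasal2 level of the 15 classes in its library, and dentate granule-like nuclei were next at 879.6 CPM. In the control the order of these classes was the opposite, at 302.0 and 1295 CPM. The 6 dentate granule markers summed to 4199 CPM in control oligodendrocyte-like nuclei and to 3068 in the others, with none at 0. Most of this was Dock10 (3839 and 2697 CPM), while Prox1 stood at 203.3 and 220.5, Rfx3 at 150.01 and 142.3, C1ql2 at 3.76 and 5.42, Trpc6 at 2.60 and 0.79 and Dsp at 0.77 and 1.24. The 6 CA3 markers summed to 152.5 and 257.8 CPM in oligodendrocyte-like nuclei, the 5 astrocyte markers to 166.1 and 234.1 and the 5 radial glia markers to 60.3 and 36.4, the last with 1 marker at 0 in the library labelled knockout. The part of these markers in the result was not tested. The 7 oligodendrocyte markers summed to 21522 and 21152.

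Among oligodendrocyte-like nuclei of the library labelled knockout, the 215 with an Etv4 UMI had 1732 Rasal2 CPM (1678 to 1788), and the 785 without one had 1517 (1487 to 1547). Median depths were 10074 and 8162 UMIs. Both groups stood above the control nuclei without Etv4, at 302.3. Splits of the same nuclei by 2 other genes gave wider differences. With and without a Gm597 UMI the level was 1983 and 1396 CPM, at median depths of 9695.5 and 8162.5. For Dkk2 it was 1947 and 1502, at median depths of 9779 and 8336. In dentate granule-like nuclei of the library labelled knockout Rasgrp1 was 3.54 (2.86 to 4.33) with an Etv4 UMI and 3.46 (2.47 to 4.71) without. In CA1-like nuclei of that library Rasgrf2 was 29.9 (28.1 to 31.7) and 23.9 (21.2 to 26.8), at median depths of 17270.5 and 15922. Control CA1-like nuclei differed in the same direction, at 19.3 (13.9 to 26.1) with an Etv4 UMI and 11.7 (10.8 to 12.6) without. These splits were chosen after the values were seen.

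Rasal2 was lower in the following excitatory classes of the library labelled knockout without reaching 2-fold. The levels were 1295 and 879.6 CPM in dentate granule-like (-0.56, -0.58 to -0.54), 282.4 and 235.7 in CA3-like (-0.26), 512.0 and 332.8 in CA1-like (-0.62), 288.9 and 185.7 in CA2-like (-0.64) and 343.2 and 234.1 in subicular or cortical excitatory-like nuclei (-0.55). Within dentate granule-like clusters 1 and 3 the ratio was 0.07 and -0.35, and in the clusters built without the changed genes it was -0.56 and -0.42. Within CA1-like clusters 4, 6 and 22 it was -0.91, -0.40 and 0.08. Inhibitory-like nuclei held 475.4 and 463.7 CPM (-0.04, -0.08 to 0.01), and Cajal-Retzius-like nuclei held 348.1 and 345.8 (-0.01). Lower levels were also seen outside neurons, at 252.3 and 213.8 CPM in astrocyte-like (-0.24) and 320.5 and 256.8 in microglia-like nuclei. Cycling progenitor-like nuclei held 459.6 (425.8 to 495.4) and 504.0 (463.1 to 547.5) CPM, and as these intervals overlap the direction is not resolved.

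**Figure D4:**
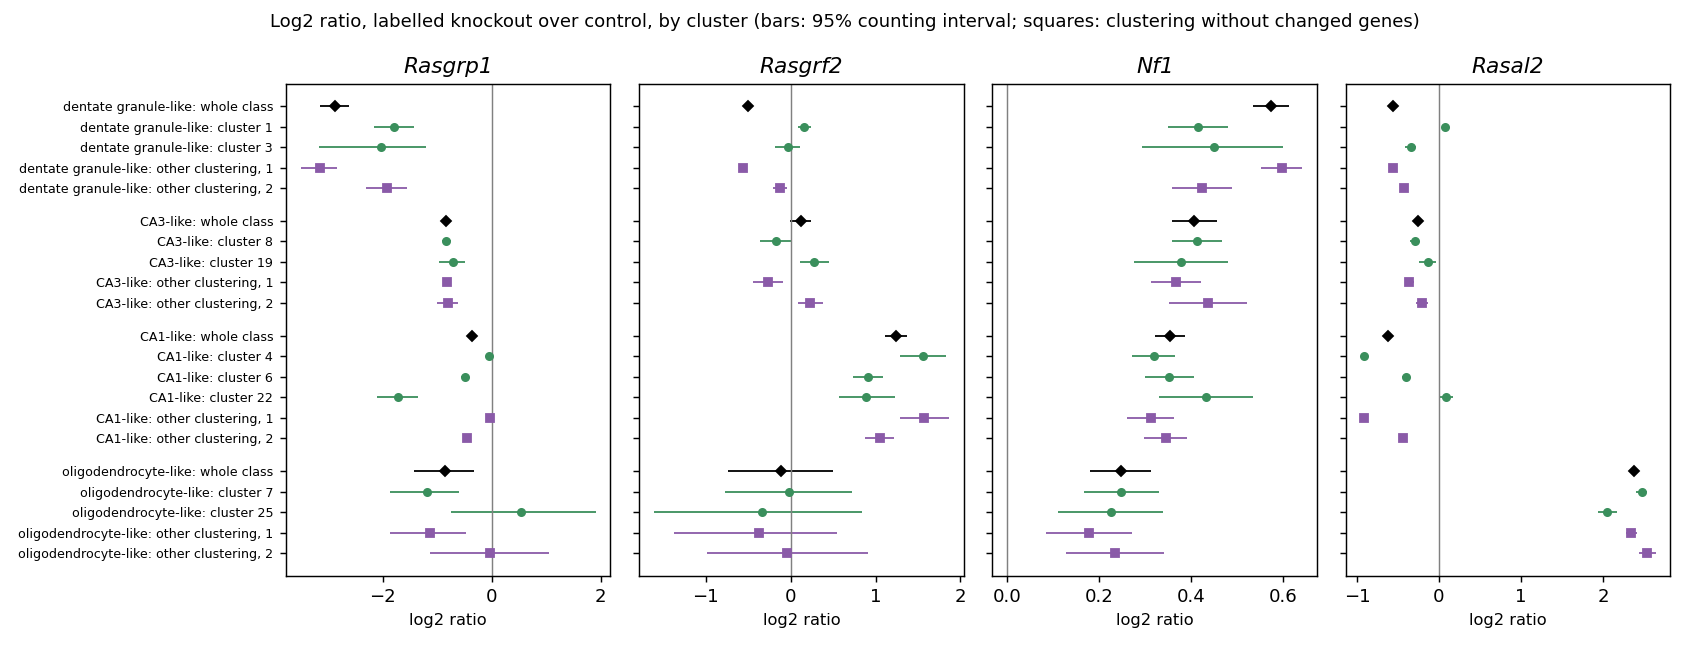
Log2 ratio of 4 members, library labelled knockout over control, in 4 classes (black diamonds), in their clusters (green circles) and in the clusters of a second clustering built without the changed genes (purple squares), with 95% counting intervals. Rasgrp1 is below 0 in every dentate granule-like and CA3-like cluster, Rasal2 is above 2 in every oligodendrocyte-like cluster, and the Rasgrf2 and Rasal2 values of the dentate granule-like class move with the clustering.

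The other genes of the pathway were read from 5 lists with 74 genes in all, in CA1-like, CA3-like and dentate granule-like nuclei. Among diacylglycerol kinases, which remove the lipid that activates Rasgrp1, 1 of 8 tested fell in dentate granule-like nuclei and none rose, where 89 of all 8415 tested genes were called lower. This was Dgkz, with 4090 control UMIs and 1178 of the other library, or 75.5 and 30.9 CPM (-1.29, -1.38 to -1.20). Rasgrp1, which this lipid activates, and Dgkz, which removes it, were thus both lower in these nuclei.

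The list of phospholipases C and protein kinases C includes enzymes that make diacylglycerol and kinases that respond to it, though not every member does either. Of its genes, 1 of 12 tested rose in dentate granule-like nuclei. None of 12 was called in CA3-like nuclei, and 2 of 12 rose in CA1-like nuclei. Over all tested genes, 191 of 8415, 102 of 8186 and 221 of 8370 were called higher in these classes, in that order. Plce1, a phospholipase C that is itself bound by Ras, stood at 31.1 and 82.5 CPM in dentate granule-like (1.41, 1.32 to 1.49) and 9.93 and 31.7 in CA1-like nuclei (1.68, 1.54 to 1.82). Plcl1, a relative of the phospholipases C without catalytic activity, stood at 50.5 and 123.8 CPM in CA1-like nuclei (1.29, 1.23 to 1.36). The 12 other Ras exchange factors and GTPase-activating proteins, the 8 Ras GTPases and the 21 exchange factors and GTPase-activating proteins of Rap and Ral held no called gene in any of these 3 classes. Over all 15 classes, counted as pairs of gene and class, 3 of 105 tested pairs were called higher and 1 lower for the other Ras exchange factors and GTPase-activating proteins, 1 of 69 higher and 0 lower for Ras GTPases, and 1 of 255 higher and 2 lower for the Rap and Ral list. The counts were 1 higher and 2 lower of 116 for diacylglycerol kinases and 4 higher and 3 lower of 185 for phospholipases and protein kinases C. Over all genes, 1.07% of 114819 such pairs were called higher and 0.357% lower, with shares that differ widely between classes. In subicular or cortical excitatory-like nuclei 1 list gene rose, where 78 of 8526 tested genes did. In oligodendrocyte-like nuclei 1 of 18 tested genes of the Rap and Ral list and 2 of 13 of the phospholipase and protein kinase C list fell, where 70 of 8125 tested genes did. The called list genes of these classes included Rasa4 in subicular or cortical excitatory-like nuclei (74 and 152 UMIs, log2 ratio 1.08) and Rapgef3 (-1.64) and Plcb4 (-1.04) in oligodendrocyte-like nuclei. These 3 fall outside the naming rule and were chosen with their values in view. In dentate granule-like nuclei the median log2 ratio of the tested genes was -0.22 for diacylglycerol kinases, -0.09 for phospholipases and protein kinases C, 0.01 for the other Ras exchange factors and GTPase-activating proteins, -0.09 for Ras GTPases and -0.05 for the Rap and Ral list, beside 0.01 over all tested genes.

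The genes most like each member were taken by Pearson correlation of log2(CPM + 1) over 30 pairs of class and library, among 14117 genes. The points of one library share its depth and preparation, and the values are descriptions. Rasgrp3 was matched most closely by Gm10790 (0.95), Casp8 (0.94) and Nlrp1c-ps (0.94). Rasgrf1 was matched by Slc4a10 (0.95), Klhl3 (0.94) and Rimbp2 (0.94), and Rasgrf2 by Col25a1 (0.90), Rgs8 (0.88) and Lrrc3b (0.87). For Rasgrp1 the closest were Slc9a2 (0.87), Crim1 (0.86) and Gm38413 (0.85), and for Rasgrp2 they were Afap1 (0.85), Satb1 (0.85) and Shd (0.80). Sos1 went with R3hcc1 (0.89), Magi1 (0.88) and Rnf8 (0.88), Sos2 with Ppp6r3 (0.91), Zmiz1 (0.91) and Tm9sf4 (0.91), and Nf1 with Zfp516 (0.90), Tra2a (0.89) and Zfp445 (0.89). Rasal2 had no close match, and Ndst4 (0.60), Prox1os (0.59) and Col5a2 (0.59) came nearest.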

How the data were processed

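The authors deposited raw UMI counts per gene and nucleus, made with Cell Ranger 8.0.1 per the file headers. The submitters' processing notes name mm39. Nuclei with under 500 genes or over 5% mitochondrial UMIs, and doublets called by Scrublet in scanpy 1.11.5 (3277 control and 2474 labelled-knockout nuclei), were left out. The libraries were clustered together (3000 variable genes without the members, 30 components, 15 neighbours, Leiden resolution 1, leidenalg 0.10.2), and clusters were named from 22 marker sets. Counts were summed per class and scaled to CPM (per 1000000 UMIs), and 0.5 UMI was added to each sum for log2 ratios. Intervals are exact Poisson for a sum, conditional binomial for a ratio and Clopper-Pearson for a share. Female nuclei had at least 2 Xist UMIs and no Y-linked UMI, and male nuclei the reverse. TMM factors came from edgeR 4.0.16. With 1 library per group no p-value was computed. Overlaps between genes came from GENCODE M21, which held 94.9% of the gene identifiers. All members were named, as were list genes past the size rule in CA1-like, CA3-like or dentate granule-like nuclei and the 3 genes most like each member. The members, lists and markers were chosen with earlier results of these data known. The code was tested on simulated data.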

Additional observations from a re-analysis of the deposited data

Results flagged for a closer look

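Rasal2 and Rasgrf2 had opposite directions in different classes. The log2 ratio of Rasal2 was 2.38 in oligodendrocyte-like nuclei and -0.64 in CA2-like nuclei, both with counting intervals apart from 0. Rasgrf2 had log2 ratios of 1.24 (CA1-like nuclei) and -0.51 (dentate granule-like nuclei). The second value depended on the clustering, at 0.16 in cluster 1 (972 control and 3254 labelled-knockout nuclei) and -0.03 in cluster 3 (3430 and 123 nuclei). In the 2 clusters built without the changed genes it was -0.56 and -0.13. With 1 library per group, the difference between classes was not tested for either gene.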

How the results depend on the processing

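Each class is 1 library against 1 library, so differences between the genotypes, the pools of mice and the library preparations cannot be told apart. No paired analysis was possible because each group is 1 library and the replicate numbers are only accession order; for the same reason no replicate could be left out. Of 1210 alternative log2 ratios of members, 1010 stayed within the counting interval of the ratio as reported and 200 moved outside it, and no called ratio changed sign. Other scaling shifted all ratios by over 0.1 only in CA2-like (-0.13 by median-of-ratios, -0.14 by TMM) and CA1-like nuclei (-0.13 by median-of-ratios). Rasgrp1 in dentate granule-like nuclei stayed past 2-fold in 11 of 11 alternatives, from -2.95 to -1.79. These included cluster 1 alone (-1.79) and cluster 3 alone (-2.03), added after the clusters were seen and for this pair only. Rasal2 in oligodendrocyte-like nuclei stayed past 2-fold in 9 of 9, from 1.72 to 2.44. Rasgrf2 did so in 7 of 9 in CA1-like (0.90 to 1.71) and 5 of 9 in subicular or cortical excitatory-like nuclei (0.86 to 1.20). Single clusters were not counted among these 9. Rasgrf2 was past 2-fold in CA1-like cluster 4 (1.56) but not in clusters 6 (0.91) and 22 (0.89). In subicular or cortical excitatory-like nuclei it was past 2-fold in cluster 18 (1.47) but not in cluster 21 (0.34). New calls appeared for Rasgrp1 in CA2-like nuclei with TMM (-1.0) and in oligodendrocyte-like nuclei with doublets kept (-1.05), and for Rasal2 in committed oligodendrocyte precursor-like nuclei clustered without the changed genes (1.01), Sos2 in female Cajal-Retzius-like nuclei (-1.01) and Rasgrp1 in cycling progenitor-like nuclei with doublets kept (-1.48) or the lower minimum (-1.66). With a minimum of 20 UMIs and no CPM minimum, the number of called genes rose from 280 to 978 in dentate granule-like, from 265 to 1131 in CA1-like, from 240 to 626 in oligodendrocyte-like, from 93 to 417 in subicular or cortical excitatory-like and from 133 to 558 in CA3-like nuclei. In the other classes it rose from 205 to 468 (CA2-like), 119 to 356 (Cajal-Retzius-like), 110 to 311 (committed oligodendrocyte precursor-like), 43 to 247 (radial glia-like), 39 to 211 (cycling progenitor-like), 37 to 232 (immature dentate granule-like), 24 to 169 (microglia-like), 22 to 207 (astrocyte-like), 20 to 156 (oligodendrocyte precursor-like) and 10 to 167 (inhibitory-like). Female nuclei alone gave 445 in CA1-like, 238 in subicular or cortical excitatory-like, 248 in CA3-like, 66 in immature dentate granule-like, 66 in astrocyte-like and 48 in inhibitory-like nuclei. Male nuclei alone gave 111 in CA2-like, 59 in immature dentate granule-like, 40 in Cajal-Retzius-like and 11 in oligodendrocyte precursor-like nuclei. Thinning gave 25 in CA2-like, 28 in Cajal-Retzius-like, 27 in radial glia-like, 23 in cycling progenitor-like, 11 in oligodendrocyte precursor-like and 47 in committed oligodendrocyte precursor-like nuclei. Keeping doublets gave 62 in cycling progenitor-like, 39 in astrocyte-like and 59 in microglia-like nuclei, and clustering without the changed genes gave 80 in cycling progenitor-like nuclei.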
